A study of Mus musculus with 4 samples.

Results

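Type 1 conventional dendritic cells were looked for among the CD45+ immune cells of mouse brain tumours by a gate on single-cell RNA counts, which held 182 of 13412 immune barcodes. A cell entered the gate with at least 1 unique molecular identifier (UMI, a tag that marks 1 captured RNA molecule) of Xcr1 or Clec9a and with at least 2 of the 6 genes Wdfy4, Cadm1, Naaa, Tlr3, Itgae and Gcsam detected. It also had no UMI of Ccr7, at most 1 UMI of Siglech, and fewer than 3 UMIs summed over the T cell, B cell and natural killer cell genes Cd3d, Cd3e, Cd3g, Cd79a, Ms4a1 and Ncr1. Only barcodes with at least 300 detected genes and at most 15% mitochondrial UMIs were considered. The gate held 91 cells in each of the 2 immune libraries. The cells were thus chosen by their measured UMIs of these genes, so the levels of the gate genes in them describe the choice and are not a result.

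The tumours grew in immunocompetent female C57BL/6 mice after intracranial implantation of EO771, a mouse mammary carcinoma line that here carried GFP. The mice received vehicle or SCDi, a treatment that the labels name only by this abbreviation and that the study's title describes as directed at SCD, for 14 days. Scd genes encode stearoyl-CoA desaturases, enzymes that make monounsaturated fatty acids. For each treatment, brain cells from 3 mice went into 1 pool, which was sorted into CD45+ GFP-negative immune cells and CD45-negative GFP+ tumour cells, and each of the 4 sorted fractions gave 1 droplet library. The age of the mice was not given in the sources used here. Since each treatment is 1 pooled library, no difference between treatments has a replicate check: no p-value is given, and every interval below covers counting error only.

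Type 1 conventional dendritic cells arise under the transcription factors IRF8 and BATF3 and depend on the growth factor receptor FLT3. They bind debris of dying cells through CLEC9A, sense double-stranded RNA through TLR3, and present captured antigen on MHC class I to CD8 T cells, a process for which WDFY4 is needed. XCR1 is the receptor for XCL1, a chemokine made by natural killer and CD8 T cells. In tumours these cells are known as a rare population that takes up tumour antigen, makes CXCL9 and IL-12, and leaves for lymph nodes after switching on CCR7, so cells that have made this switch lie outside the gate by its rule.

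The vehicle and SCDi immune libraries held 7332 and 6777 barcodes, 135851178 and 141068797 UMIs, and a median of 15293.5 and 16548 UMIs per barcode. Of these barcodes 6959 and 6453 passed the limits on genes and mitochondrial UMIs. As a check of the sort, the CD45 gene Ptprc was detected in 96.75% and 98.17% of immune barcodes and in 0.09392% and 0.0% of those sorted as tumour cells. The same gate held 1 barcode in each tumour library. The immune libraries shared 14 barcode sequences, none of them among the gated cells. Gated cells were deeper than the average barcode, with medians of 20815 (2253 to 72741) UMIs under vehicle and 26232 (2740 to 88596) under SCDi. A doublet score marked 8 (8.79%) and 6 (6.59%) of them, beside 5.56% and 5.16% of all barcodes that passed the limits.

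The label was then checked against the counts. Xcr1 (chromosome 9, 123852315 to 123862029, minus strand, mm10) or Clec9a (chromosome 6, 129408862 to 129424763, plus strand, mm10) had a UMI in 239 vehicle and 217 SCDi barcodes. Of those, 158 and 143 also had the required 2 supporting genes. Within the gate most cells entered on Clec9a alone, 65 under vehicle and 64 under SCDi. Xcr1 alone admitted 12 and 12, and both genes were present in 14 and 15. A single UMI of either gene carried 46 and 38 of the 91 cells. The support was often thin as well: 48 and 37 cells had only 2 of the 6 supporting genes, and in 43 and 31 cells these 2 were Wdfy4 and Naaa. All 6 supporting genes were found in 4 and 5 cells.

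Wdfy4 and Naaa were not particular to the gate at this depth. Both were read in barcodes with at least 10 summed UMIs of the complement genes C1qa, C1qb and C1qc, which macrophages express. These barcodes also met the gate's limits on Ccr7, Siglech and the T, B and natural killer cell genes. Wdfy4 had a UMI in 72.1% and 71.7% of them and Naaa in 76.0% and 80.3%. The gate therefore turned on the key gene in such cells. Xcr1 or Clec9a had a UMI in 27 of 1957 (1.38%, 95% Clopper-Pearson interval 0.911 to 2.0) of these C1q-rich barcodes under vehicle and in 52 of 2199 (2.36%, 1.77 to 3.09) under SCDi. T cells, which should lack both genes, had one in 15 of 616 (2.44%, 1.37 to 3.98) and 9 of 410 (2.2%, 1.01 to 4.13), at median depths of 25598.5 and 28424.5 UMIs against 19076 and 21729 in the C1q-rich barcodes. In T cells with under 3 C1q UMIs the shares were 3 of 227 (1.32%, 0.273 to 3.81) and 2 of 125 (1.6%, 0.194 to 5.66), at median depths of 11370 and 9846 UMIs. Of all T cells 34.4% and 36.1% reached the C1q level of macrophages themselves. Both shares in C1q-rich barcodes lay within the intervals of both T cell shares. Detection of 1 or more UMIs alone could therefore not tell the key genes apart there from background. The number of key gene UMIs per barcode was not compared with T cells. Of the 27 and 52 barcodes, which already met the gate's limits on other genes, 26 and 40 were in the gate. The T cells had no limit on Ccr7 or Siglech, so the filters of the compared groups were unlike.

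Clec9a was also found outside the gate in plasmacytoid dendritic cells, the interferon-producing type marked by Siglech. It had a UMI in 33 of 77 (42.9%, 31.6 to 54.6) plasmacytoid cells with under 3 C1q UMIs under vehicle and in 26 of 62 (41.9%, 29.5 to 55.2) under SCDi. Xcr1 had none in either, which allows a share of up to 4.68% and 5.78% in the exact interval.

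For description, the gated cells were divided into 3 subsets, a division chosen after their values had been seen. C1q-rich cells had 3 or more UMIs of C1qa, C1qb and C1qc and numbered 46 under vehicle and 57 under SCDi. C1q-poor cells were divided by Cd209a, a lectin gene of type 2 conventional dendritic cells and of dendritic cells derived from monocytes. Those without Cd209a numbered 25 and 21, and those with it 20 and 13. Depth differed between subsets, with median UMIs of 26802 and 32161 in C1q-rich cells against 19331 and 19560 in the Cd209a-negative and 18134.5 and 20384 in the Cd209a-positive cells. The limit of 3 UMIs is therefore easier to reach in the first subset. Of the C1q-rich cells 12 and 23 had 3 or more UMIs over Xcr1 and Clec9a, with at most 25 and 45 in a cell. As many were found in 12 and 13 Cd209a-negative and in 5 and 5 Cd209a-positive cells.

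**Figure D1:**
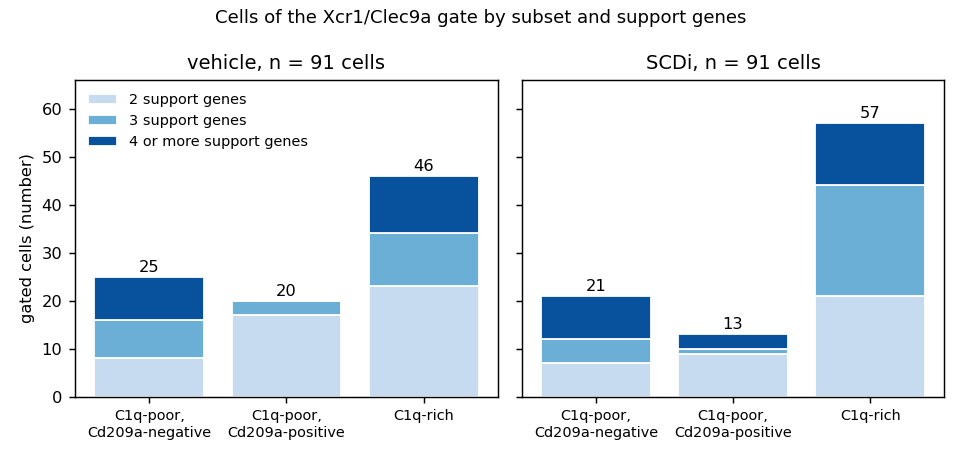
Number of gated cells (vertical axis) in each subset, with bars divided by how many of the 6 supporting genes had a UMI, in the vehicle and the SCDi library. The C1q-rich subset is the largest in both libraries, with 46 and 57 cells.

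C1q-rich cells were themselves of 2 kinds. Levels are given as CPM, counts of a gene scaled to a fixed total of UMIs. That total is of 1 cell for single cells and of the summed cells for summed counts. Under vehicle 23 of the 46 reached 1033 CPM of summed C1q genes, the level that 95% of gated macrophages exceeded. Under SCDi 39 of the 57 reached the corresponding 971.7 CPM. The rest lay lower: the lower quartile of the C1q-rich cells was 204.2 and 304.8 CPM. The subset names rest on UMI counts and not on levels, so levels overlapped between subsets. Under vehicle a C1q-rich cell of 43990 UMIs, with 12 UMIs of Xcr1, had 68.2 CPM. Under SCDi a C1q-poor cell of 2740 UMIs had 729.9 CPM. Leaving out C1q-rich cells, as done below, therefore also leaves out deep cells with low C1q levels. T cells do not make C1q. T cells of any C1q count had a median of 263.5 and 344.3 CPM, and 34.4% and 36.1% of them reached the macrophage level. T cells chosen for under 3 C1q UMIs had a median of 71.23 and 97.26 CPM. In their summed counts the C1q-rich cells had C1qa at 1932 and 3312 CPM and Apoe, a macrophage lipoprotein gene, at 5638 and 3433 CPM. The corresponding C1qa levels were 24.06 and 24.93 CPM in Cd209a-negative cells and 12.73 and 10.52 CPM in Cd209a-positive cells. Part of the gate thus carried macrophage RNA at macrophage level. Whether such barcodes were single cells, doublets or cells with free RNA was not tested, though the doublet score marked 7 (15.2%) and 5 (8.77%) of the C1q-rich cells and 1 and 1 of the C1q-poor.

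The summed levels of Irf8, Batf3 and Id2 were highest in the Cd209a-negative C1q-poor cells. Irf8 (chromosome 8, 120736358 to 120756694, mm10), which the gate did not use, stood at 1362 CPM under vehicle and 1927 CPM under SCDi in these cells. It stood at 226.6 and 449 CPM in Cd209a-positive cells and at 491 and 529.5 CPM in C1q-rich cells. Batf3 (chromosome 1, 191097847 to 191108945, mm10), its partner factor, stood at 164 and 129.2 CPM, against 35.64 and 56.13 and against 50.79 and 72.62 CPM. Both factors were highest in the same subset in both libraries. Id2, a factor that holds back the plasmacytoid fate, followed the same order with 1520 and 1417 CPM, then 638.4 and 541.2 CPM in C1q-rich cells and 165.5 and 382.4 CPM in Cd209a-positive cells.

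Among genes of the gate, Xcr1 stood at 137.8 and 160.9 CPM in Cd209a-negative cells, 48.67 and 41.71 CPM in C1q-rich cells, and 2.546 and 0 CPM in Cd209a-positive cells. Xcr1 was thus near absent from the last. Cells with a UMI of Xcr1 numbered 10 and 11 among Cd209a-negative, 15 and 16 among C1q-rich, and 1 and 0 among Cd209a-positive cells. Clec9a was less divided, at 192.4 and 156.4, 52.9 and 68.7, and 101.8 and 129.8 CPM in the same order. Wdfy4 stood at 1419 and 1129 CPM in Cd209a-negative cells against 252 and 329.7 CPM in Cd209a-positive cells. Cadm1, an adhesion molecule, stood at 323.7 and 165.5 CPM against 12.73 and 73.67 CPM, but under SCDi it was highest in C1q-rich cells, at 219.3 CPM. Tlr3, Itgae (CD103) and Gcsam were likewise higher in Cd209a-negative than in Cd209a-positive cells in both libraries.

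**Figure D2:**
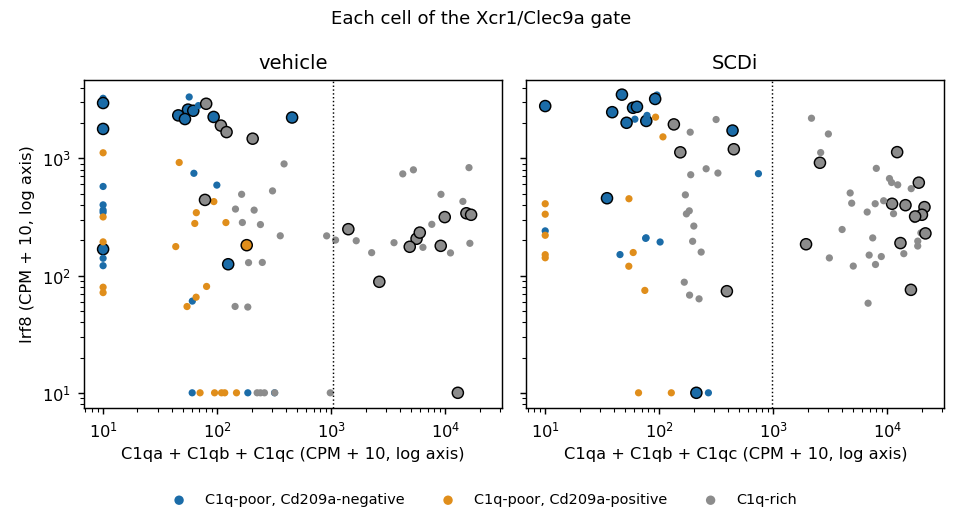
Each gated cell by its summed C1qa, C1qb and C1qc level (horizontal) and its Irf8 level (vertical), both as CPM + 10 on log axes; colour gives the subset, black-edged points have a UMI of Xcr1, and the dotted line is the level that 95% of gated macrophages exceeded. Cells with Irf8 above 1000 CPM lie left of the line except for 4 SCDi cells, and Xcr1-positive cells lie on both sides of it.

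Single cells divided in the same way. A level of at least 1000 CPM of Irf8, a limit chosen after the values had been seen, was reached by 16 of 91 cells (17.6%, 10.4 to 27) under vehicle and 23 of 91 (25.3%, 16.7 to 35.5) under SCDi. Of these, 12 and 13 had a UMI of Xcr1, against 14 of 75 and 14 of 68 of the cells below the limit. By subset, the high-Irf8 cells were 11, 1 and 4 under vehicle and 12, 2 and 9 under SCDi among Cd209a-negative, Cd209a-positive and C1q-rich cells. They reached the macrophage C1q level in 0 cells under vehicle and 4 under SCDi. The Cd209a-negative subset was itself mixed, since its per-cell Irf8 had a median of 580.9 CPM with quartiles of 130.4 and 2314 under vehicle, and a median of 2000 CPM with quartiles of 199.9 and 2689 under SCDi. Counted over all immune barcodes, the high-Irf8 cells came to 0.23% (0.131 to 0.373) and 0.356% (0.226 to 0.534), with a difference of 0.127 points (interval -0.06 to 0.33).

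High Irf8 was thus found in a minority of the gated cells, so the label of type 1 conventional dendritic cells is not used for the whole set, which is called the Xcr1/Clec9a gate here. In the 3126 genes that reached 50 CPM in either C1q-poor subset in both libraries, 68 (2.18%) were at least 2-fold higher and 74 (2.37%) at least 2-fold lower in Cd209a-negative than in Cd209a-positive cells in both libraries. H2-Ob, a chain of the MHC class II modulator H2-O, stood at 102.8 and 63.47 CPM against 12.73 and 7.016 CPM. Rab7b, a vesicle transport GTPase, stood at 244.9 and 269.7 CPM against 40.73 and 59.63 CPM. Ppt1, a lysosomal thioesterase, stood at 433 and 514.5 CPM against 61.09 and 119.3 CPM. Agpat3, Snx22, Snx24 and Nek6 were also among the 15 highest.

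In the opposite direction Cd7, a surface protein best known from lymphoid and plasmacytoid cells, stood at 473.5 and 242 CPM in Cd209a-positive cells against 69.98 and 24.93 CPM in Cd209a-negative cells. Ccl9, a chemokine of myeloid cells, stood at 476 and 287.6 CPM against 72.17 and 45.33 CPM. Mrc1, the mannose receptor, stood at 71.28 and 84.19 CPM against 4.374 and 18.13 CPM. Tcf4, the master factor of plasmacytoid cells, stood at 562.6 and 466.6 CPM against 251.5 and 170 CPM, beside 4396 and 4128 CPM in C1q-poor plasmacytoid cells. The gate admitted cells without Xcr1 only through Clec9a, so the presence of Clec9a in Cd209a-positive cells was set by its rule. The Cd209a-positive cells numbered 20 and 13, and 1 of the 20 held all of the haemoglobin RNA described below.

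**Figure D3:**
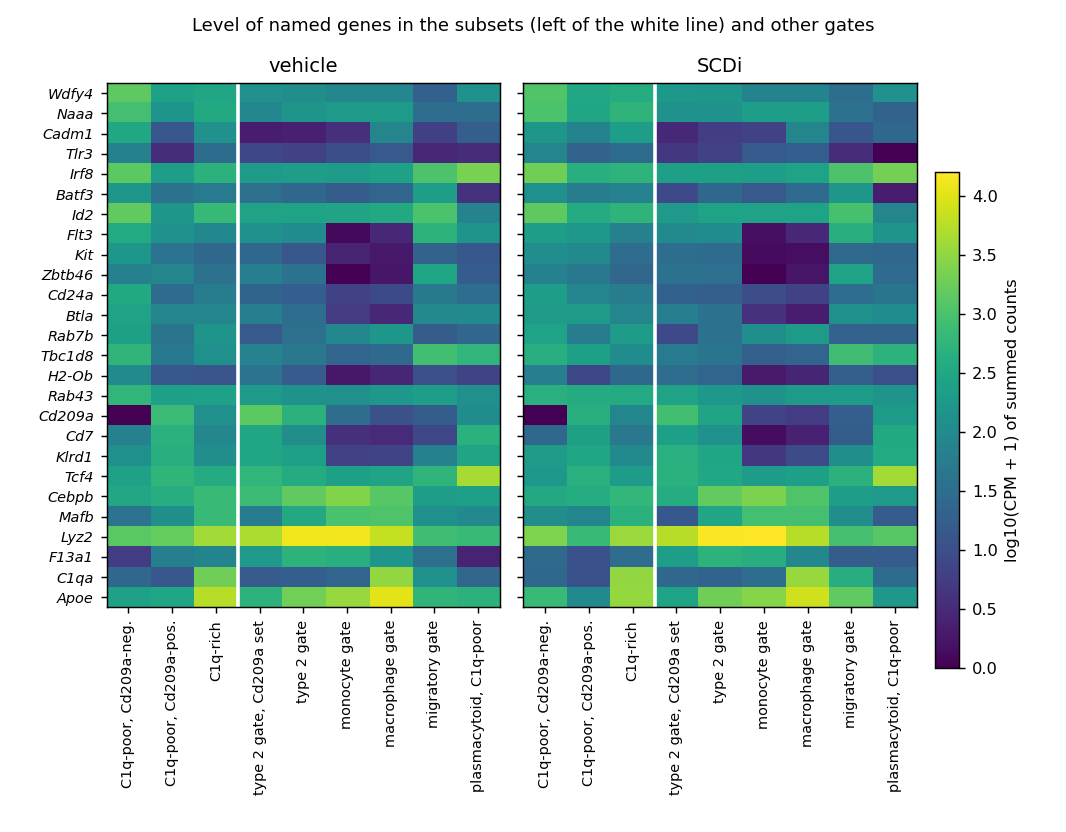
Level of named genes as log10(CPM + 1) of summed counts (colour scale) in the 3 subsets of the gate, left of the white line, and in 6 comparison gates, for each library. Wdfy4, Irf8, Id2 and Cd24a are highest of the 3 subsets in the Cd209a-negative C1q-poor cells, and C1qa is high in the C1q-rich subset and the macrophage gate.

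The gate was next compared with type 2 conventional dendritic cells, which present antigen mainly to CD4 T cells. This gate required Flt3 or Zbtb46, 2 of 6 type 2 genes and under 3 C1q UMIs, and it held 173 and 148 cells. It also held cells with monocyte RNA: Lyz2 (lysozyme) stood at 12950 and 15130 CPM in it, against 13240 and 15930 CPM in the monocyte gate. A narrower type 2 gate, which required 2 of Cd209a, Clec10a and Mgl2 and was added after this was seen, held 50 and 30 cells.

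Of 3309 genes that reached 50 CPM, 90 (2.72%) were at least 2-fold higher and 81 (2.45%) at least 2-fold lower in the Xcr1/Clec9a gate than in the type 2 gate in both libraries. The head of the list mixed genes of both kinds of gated cell. Ccl8, a macrophage chemokine, stood at 763.3 and 1866 CPM against 24.55 and 18.76 CPM. Pf4, platelet factor 4, which tissue macrophages also make, stood at 181.2 and 74.52 CPM against 15 and 3.518 CPM. When C1q-rich cells were left out, Ccl8 was lower than in the type 2 gate under vehicle (log2 ratio -1.31) and so was Pf4 (-1.88). The type 2 gate excluded C1q-rich cells by its rule. The same turn of sign under vehicle was found for Ccl12, Itga9, Cd63, Lpl, Slamf9 and Cd81. Under SCDi none of these genes, Ccl8 and Pf4 included, turned sign when C1q-rich cells were left out.

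Other genes at the head of the list did not turn. Plet1, a surface protein, had log2 ratios of 2.94 (2.38 to 3.58) under vehicle and 3.59 (3.1 to 4.17) under SCDi over all gated cells, and 2.8 and 5.15 over C1q-poor cells. Cd24a, a surface sialoprotein used to sort these cells, had 2.74 (2.31 to 3.23) and 2.31 (1.86 to 2.81), and 3.6 and 3.27 over C1q-poor cells. Rab7b had 2.12 and 2.49, and 2.14 and 2.36 over C1q-poor cells. Gatm, the first enzyme of creatine synthesis, the lysosomal sulfatase Arsb and the Rab regulator Tbc1d8 were likewise over 2-fold higher in both libraries with and without C1q-rich cells.

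**Figure D4:**
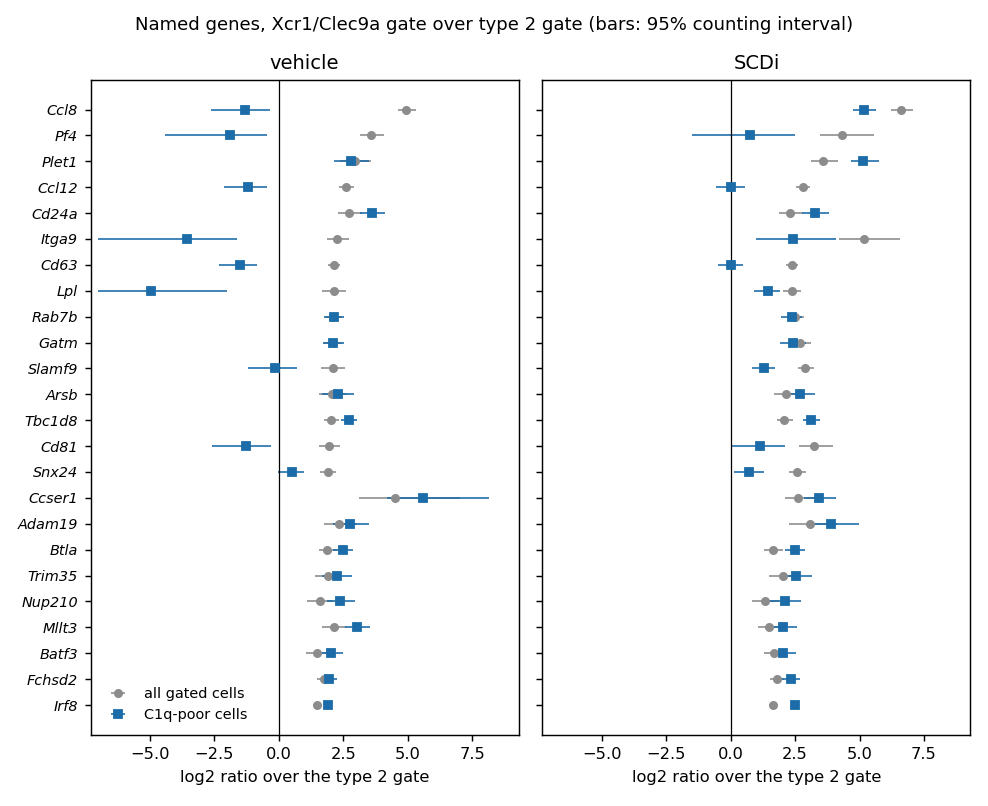
Log2 ratio of named genes over the type 2 gate in each library, for all gated cells (grey circles) and C1q-poor cells only (blue squares), with 95% counting intervals cut at the axis limits. Ccl8, Pf4, Ccl12, Itga9, Cd63, Lpl, Slamf9 and Cd81 lie left of 0 under vehicle without the C1q-rich cells, while Plet1, Cd24a, Rab7b, Irf8 and Batf3 lie right of 0 both ways.

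Genes lower than in the type 2 gate were largely those of monocytes. F13a1, a clotting factor chain of monocytes, had log2 ratios of -3.09 (-3.35 to -2.84) and -4.17 (-4.53 to -3.85). Chil3, a chitinase-like protein of monocytes, had -2.99 and -4.23, and Cd14, the endotoxin coreceptor, -2.31 and -2.58. Hp, Mgst1, Plcb1, Thbs1 and F5 were also among the 15 lowest. Against the narrower type 2 gate the C1q-poor cells still had less F13a1 (-2.49 and -3.4). Over all gated cells, however, Chil3 was higher than in the narrower gate under SCDi (4.53), as was Thbs1 (1.59), and Mmp8 had 0.07 under vehicle.

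The transcription factors of conventional dendritic cells were then read in C1q-poor cells only. Leaving out Zbtb46, which the type 2 gate used, 8 of 11 factors were higher than in the type 2 gate in both libraries, with medians of 0.63 and 0.45 on the log2 scale beside 0.01 and 0.07 over all 8907 genes of at least 5 CPM. For all genes of at least 50 CPM in this comparison, 86 of 3222 (2.67%) were at least 2-fold higher and 130 (4.03%) at least 2-fold lower. Batf3 led with log2 ratios of 2.03 (1.57 to 2.5) and 2.03 (1.52 to 2.54), followed by Irf8 with 1.9 (1.74 to 2.05) and 2.48 (2.34 to 2.63). Nfil3 was lower, with -1.27 and -1.38, and Spi1 (PU.1) had -0.06 and -0.25. Against the narrower type 2 gate 63 of 3120 genes (2.02%) were at least 2-fold higher and 41 (1.31%) lower, and 5 of the 11 factors were higher and 4 lower in both libraries, with medians of 0.03 and 0.31. Batf3 had 1.6 and 3.57 there and Irf8 2.12 and 2.45, so both stayed over 2-fold higher with either type 2 gate.

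Genes of antigen presentation differed less. Of 21 cross-presentation genes 5 were higher and 7 lower in both libraries in C1q-poor cells than in the type 2 gate, with medians of -0.24 and 0.02. Rab43, a GTPase needed for cross-presentation in these cells, was the highest with log2 ratios of 1.61 (1.41 to 1.82) and 1.32 (1.1 to 1.53). Cybb, an NADPH oxidase subunit, was the lowest, with -1.29 and -1.5. Of 14 MHC class II genes 13 were higher, with medians of 0.76 and 0.74. That count was not kept against the narrower type 2 gate, where 5 of 15 were higher and 2 lower, with medians of 0.18 and -0.00. Of 17 MHC class I genes 9 were higher and 5 lower, led by the immunoproteasome genes Psmb9 (0.8 and 1.02) and Psme1 (0.73 and 0.83).

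Among receptors, Kit, the stem cell factor receptor, had log2 ratios of 3.09 (2.54 to 3.69) and 1.89 (1.42 to 2.37) over the type 2 gate. Btla, an inhibitory receptor, had 2.48 (2.1 to 2.87) and 2.51 (2.12 to 2.9), and 1.49 and 1.68 over the narrower type 2 gate. P2ry14, a receptor for UDP-glucose, had 1.79 and 2.29. Of 22 pattern recognition receptors 6 were higher and 15 lower. Tlr11 (3.14 and 2.71) and Tlr12 (3.9 and 2.36), which sense profilin of protozoan parasites, were the highest, although their intervals were wide, at 1.49 to 5.35 and 0.59 to 5.44 for Tlr11. Clec4n (Dectin-2) and Cd14 were the lowest. All 12 monocyte genes were lower in both libraries, as were 10 of 13 macrophage genes apart from the C1q genes used to choose these cells. Against the narrower type 2 gate, 8 of 12 monocyte genes were lower and 3 higher, and of the 12 macrophage genes measured apart from C1q 4 were lower and 2 higher.

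Genes of the mature, migrating state were low in the gate. Fscn1, an actin-bundling gene of migrating dendritic cells, had 0 UMIs in all 91 cells of each library, which allows a share of cells with a UMI of up to 3.97% in the exact interval; it stood at 1798 and 1949 CPM in the migratory gate. Il12b, the p40 chain of IL-12, stood at 0 and 1.809 CPM against 128.4 and 274.5 CPM. The migratory gate, of 514 and 281 cells, required at least 2 UMIs of Ccr7, which the Xcr1/Clec9a gate excluded, and 2 of 6 genes that include Fscn1. The high levels of Ccr7 and Fscn1 there were therefore set by the rule.

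Across all genes the migratory cells were the more distant comparison. Over all gated cells 605 of 3642 genes (16.6%) were at least 2-fold higher and 551 (15.1%) at least 2-fold lower than in the migratory gate in both libraries. In 3478 genes of at least 50 CPM, 497 (14.3%) were at least 2-fold higher and 524 (15.1%) at least 2-fold lower in C1q-poor gated cells in both libraries. The migratory gate itself used 6 of the 22 genes of the maturation programme. The other 16 were all lower in both libraries, 15 of them at least 2-fold, with medians of -4.01 and -3.97 on the log2 scale when genes with no UMI in a group were set to 3 counts. Of 17 MHC class I genes 15 were lower, led by H2-Q6 (-5.23 and -3.61) and H2-Q7 (-4.34 and -3.51). MHC class II genes went the other way, with 11 of 15 higher and H2-DMb1 (2.89 and 2.68) and H2-DMa (2.51 and 2.01), which load peptide, at the head. Of 24 genes of the type I interferon response 19 were higher, among them Ifit3 (1.87 and 1.71) and Ifit2 (1.7 and 1.61). Of 22 cholesterol synthesis genes 19 were higher, among them Dhcr7 (2.25 and 2.66). These list counts are by direction alone, so the shares of all genes at 2-fold are not a background for them.

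Irf8, Batf3 and Id2 did not set the C1q-poor cells apart from migratory cells as they did from type 2 cells. Irf8 had log2 ratios of -0.34 and 0.34, Id2 -0.21 and 0.1, and Batf3 -1.02 and -0.7. Against plasmacytoid cells, 201 of 3675 genes (5.47%) were at least 2-fold higher and 315 (8.57%) lower over all gated cells, but that plasmacytoid gate itself had summed C1q genes at 12440 and 13420 CPM. With C1q-poor cells on both sides, 322 of 3572 genes (9.01%) were higher and 458 (12.8%) lower.

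Readouts of activity varied from cell to cell. Cxcl9, the chemokine that draws CXCR3-bearing T cells, stood at 964.4 and 775.6 CPM over all gated cells. It stood at 542.3 and 316.7 CPM in C1q-poor cells and at 1218 and 939.2 CPM in C1q-rich cells, beside 328.6 and 291.2 CPM in the type 2 gate. With each cell thinned to 2000 UMIs, Cxcl9 had a UMI in 37.4% (27.4 to 48.1) and 40.7% (30.5 to 51.5) of gated cells, against 59.3% and 70.3% without thinning. The thinned share in C1q-poor T cells was 5.38% and 4.8%, at median depths of 11370 and 9846 UMIs. Isg15, an interferon-induced gene, had a UMI in 54.9% and 62.6% of thinned gated cells, but also in 33.6% and 47.2% of thinned T cells.

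Costimulatory genes were present in the gate. Cd86 had a UMI in 73.6% (63.3 to 82.3) and 65.9% (55.3 to 75.5) of thinned gated cells, against 71.1% and 77.0% of the type 2 gate and 12.6% and 13.6% of T cells. Cd40 had one in 24.2% and 15.4%, against 16.2% and 18.9% of the type 2 gate. The cycling genes Mki67 or Top2a had a UMI in 5 of 91 (5.49%, 1.81 to 12.4) and 4 of 91 (4.4%, 1.21 to 10.9) thinned cells, and in 17.6% and 23.1% without thinning. Thinned in separate draws, C1q-poor cells had 0 of 45 and 2 of 34 and C1q-rich cells 3 of 46 and 3 of 57.

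The number of gated cells did not separate the treatments. The gate held 1.31% (1.05 to 1.6) of immune barcodes under vehicle and 1.41% (1.14 to 1.73) under SCDi, a difference of 0.103 percentage points (Newcombe interval -0.29 to 0.5). Xcr1-positive gated cells made up 0.374% and 0.418%, with a difference of 0.045 points (-0.17 to 0.27). C1q-poor cells were 0.647% and 0.527% of immune barcodes, with a difference of -0.12 points (-0.38 to 0.14), and C1q-rich cells were 0.661% and 0.883%, with a difference of 0.222 points (-0.08 to 0.53). Gated cells with a UMI of Flt3 or Zbtb46, which conventional dendritic cells express, numbered 65 of 91 (71.4%) and 52 of 91 (57.1%), a difference of -14.286 points (-27.46 to -0.37). As shares of immune barcodes they were 0.934% and 0.806%, with a difference of -0.128 points (-0.45 to 0.19). Every difference given here as a share of immune barcodes had an interval that included 0.

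Between the treatments 3558 genes reached 50 CPM in the gated cells of either library, of which 25 (0.703%) were at least 2-fold higher and 74 (2.08%) at least 2-fold lower under SCDi. The C1q-poor cells, 45 and 34, were too few for more than counts: 88 of 3440 genes (2.56%) were at least 2-fold higher and 109 (3.17%) lower in them. The 46 C1q-rich cells under vehicle were also fewer than the 50 cells per library set for such ratios. Ratios within C1q-rich cells are therefore given as description only. C1qa stood at 1215 CPM under vehicle and 2447 CPM under SCDi, a log2 ratio of 1.01 (0.95 to 1.07). Within C1q-rich cells alone it stood at 1932 and 3312 CPM, a log2 ratio of 0.78 (0.71 to 0.84) (these cells were chosen by their C1q UMIs). Mmp13, a collagenase, had 31 and 415 UMIs and a log2 ratio of 3.44 (2.93 to 4.03), with 46.5% of the SCDi UMIs in 1 cell. Mmp13 had UMIs in 8 and 22 cells, and all but 1 of the 415 lay in C1q-rich cells. Pparg, a nuclear receptor for fatty acids, had 2.17 (1.75 to 2.64), but -0.04 among cells with Flt3 or Zbtb46. Within C1q-rich cells alone both were also higher under SCDi, Mmp13 with 3.19 (2.69 to 3.79) and Pparg with 1.89 (1.46 to 2.37). In the macrophage gate Mmp13 had -0.07 (-0.13 to -0.02) and Pparg 0.17 (0.12 to 0.22). The C1q-rich cells at macrophage C1q level were 23 of 46 under vehicle and 39 of 57 under SCDi. Ratios within this subset do not hold that share fixed.

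Slamf9, a receptor of myeloid cells, stood at 74.52 CPM under vehicle and 289.1 CPM under SCDi, with UMIs in 35 and 52 cells and a log2 ratio of 1.95 (1.71 to 2.2). It was also higher under SCDi in the macrophage gate, at 0.83 (0.79 to 0.86), and in the monocyte gate, at 1.04 (0.87 to 1.22). Within C1q-rich cells Slamf9 had 1.7 (1.45 to 1.96), Pltp, a lipid transfer gene, 1.61 and Fcgr4, an Fc receptor gene, 1.3. In the macrophage gate Pltp had 0.02 (-0.02 to 0.06) and Fcgr4 0.38 (0.36 to 0.41). The lectin genes Clec4a2 (1.51), Clec4a1 (1.45) and Clec4b1 (1.93), as well as Pltp (1.77), Fcgr4 (1.43) and Cd72 (1.38) over all gated cells, were among the 10 highest. Clec4b1 had -0.32 among cells with Flt3 or Zbtb46, but 2.41 (1.7 to 3.3) within C1q-rich cells. Ccser1 had 1.45 (1.04 to 1.89) over all gated cells. It stood at 57.64 and 128.1 CPM in C1q-poor cells and at 8.465 and 54.47 CPM in C1q-rich cells, which held 12 of its 61 vehicle UMIs and 111 of its 204 SCDi UMIs.

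Several of the lowest genes rested on 1 cell. Hbb-bs, a beta globin gene, had 3370 UMIs under vehicle, all in 1 Cd209a-positive cell that the doublet score marked. Haemoglobin genes made up 6710 of that cell's 36122 UMIs (18.6%), and none was found in the other gated cells of either library. Ccl17, a chemokine of mature dendritic cells, had 114 UMIs under vehicle, all in 1 C1q-rich cell, and 1 UMI under SCDi. Of the neutrophil genes S100a9 and S100a8, 1 vehicle cell of 5690 UMIs held 79.2% and 77.8%. These genes therefore show no difference between the treatments beyond those cells, except that S100a9 (-4.37) and S100a8 (-3.27) were still lower under SCDi without them. Both were also lower under SCDi in the type 2 gate (-4.55 and -3.0) and the monocyte gate (-3.02 and -0.49). T cells had -2.18 and -2.34, and the macrophage gate -0.75 and -0.59. In the migratory gate they had 0.4 (-0.59 to 1.34) and 0.58 (-1.0 to 2.12).

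Other low genes were spread over many cells. Tnip3, an inhibitor of NF-kB signalling, stood at 145.1 CPM in 35 vehicle cells and 15.92 CPM in 17 SCDi cells, a log2 ratio of -3.17 (-3.68 to -2.73). Tnfsf9, the ligand of 4-1BB, stood at 73.64 CPM in 36 and 11.58 CPM in 20 cells, with -2.65 (-3.26 to -2.12). Mir99ahg had -2.66 but UMIs in 8 and 7 cells only. Leaving out the cell with most UMIs of the gene in each library left Tnip3 at -3.34 and Tnfsf9 at -2.66. Tnip3 was also lower under SCDi in the type 2 gate (-1.85), the migratory gate (-0.6), the macrophage gate (-0.57), the monocyte gate (-0.45) and T cells (-0.51). Tnfsf9 was lower in the type 2 gate (-0.59) and T cells (-0.44). It was higher in the migratory gate (0.51) and had 0.06 in the macrophage and 0.16 in the monocyte gate.

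**Figure D5:**
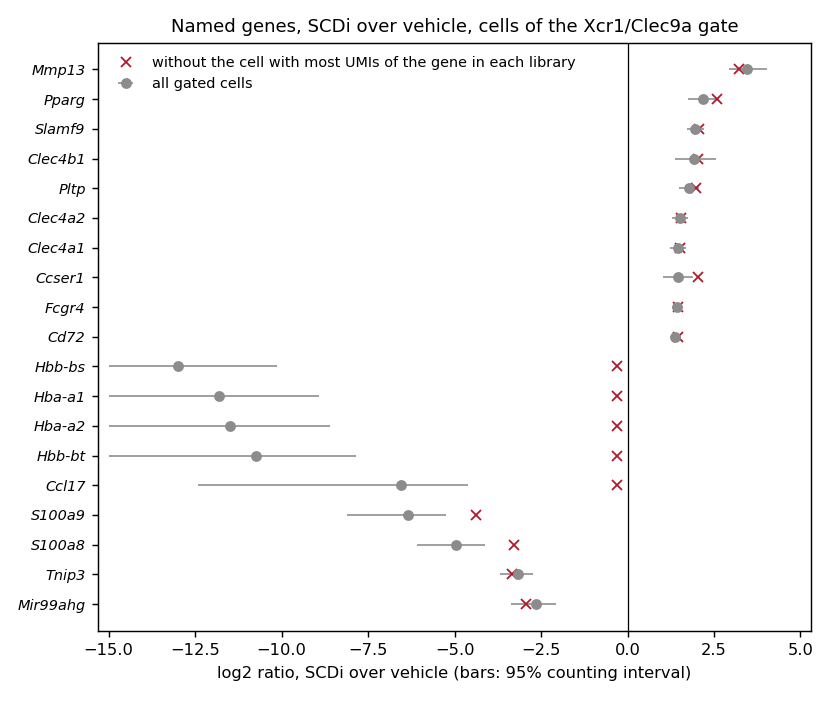
Log2 ratio, SCDi over vehicle, of named genes with the highest and lowest ratios in the gated cells, with 95% counting intervals cut at the axis limit (grey), and without the cell that holds most UMIs of the gene in each library (red crosses). The 4 haemoglobin genes and Ccl17 move next to 0 without that cell, while Tnip3 stays at -3.34.

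By list, the immediate early and stress genes that tissue dissociation induces were lower under SCDi in the gate, 21 of 22 with a median of -0.62 beside 0.02 over all 9658 genes of at least 5 CPM. Nfkbia had a log2 ratio of -1.14 (-1.29 to -1.0) and Atf3 -0.95 (-1.11 to -0.8), while Fos had -0.28. The same list was also mostly lower in the type 2 gate, with a median of -0.32, in the macrophage gate, with -0.23, and in the migratory gate, with -0.24, and had a median of -0.01 in T cells. Of 16 cytokines and chemokines 13 were lower, with a median of -0.57. Cxcl10 stood at 1064 and 545.9 CPM, with -0.96 (-1.06 to -0.87), and Cxcl9 had -0.31 (-0.4 to -0.23). The costimulatory genes Cd83 (-0.98), Cd40 (-0.67) and Cd86 (-0.58) were lower as well, in a list with 11 of 16 lower and a median of -0.07. The dissociation genes moved with these lists, and their part in them was not tested.

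Of 17 MHC class I genes 16 were higher under SCDi, by little, with a median of 0.23. B2m, the shared light chain, stood at 2805 and 3320 CPM, a log2 ratio of 0.24 (0.2 to 0.29), and H2-K1 had 0.39 (0.33 to 0.45), while the peptide transporter gene Tap1 had 0.05 (-0.1 to 0.2). The median of this list was 0.14 in the macrophage gate and -0.04 in the type 2 gate. Of 14 MHC class II genes 6 were higher and 8 lower, with a median of -0.04. Of 12 dendritic cell transcription factors 8 were lower, with a median of -0.39, although Irf8 had 0.26 (0.16 to 0.36) and Batf3 0.17 (-0.13 to 0.47). Of the lists for S phase and for G2 and M phase, 21 of 27 and 21 of 25 genes were higher, with medians of 0.6 and 0.61, although Mki67 had -0.59 and 49.6% of the 117 Top2a UMIs under SCDi lay in 1 cell. Within C1q-rich cells the median of the G2 and M phase list was -0.22, with 13 of 24 genes lower. In C1q-poor cells 22 of 23 genes were higher, but few cells had cycling genes. Mki67 or Top2a had a UMI in 4 of 45 C1q-poor vehicle cells and 7 of 34 under SCDi, without thinning. For Ube2c, a gene of this list, 1 C1q-poor cell held 45 of the 85 UMIs under SCDi. The type 2 gate had all 22 genes higher, with a median of 3.24. Its share of cells with a UMI of Mki67 or Top2a was not higher, at 12.1% under vehicle and 8.78% under SCDi. The narrower type 2 gate had 5 genes of the list measured, with a median of 0.25. T cells had all 30 lower, with -1.02.

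Stearoyl-CoA desaturase genes were scarce in the gate. Scd2 had 61 UMIs in 29 vehicle cells and 130 UMIs in 53 SCDi cells, or 26.9 and 47.03 CPM, a log2 ratio of 0.8 (0.36 to 1.27). It was also higher under SCDi in the macrophage gate (0.54), the monocyte gate (0.86), the type 2 gate (1.19) and the migratory gate (0.42). Scd1 had 4 and 9 UMIs, Scd4 1 and 1, and Scd3 none, too few for a comparison. In C1q-poor cells Scd2 was higher than in the type 2 gate, with 1.32 (0.6 to 2.01) and 1.2 (0.69 to 1.7). Of 15 genes of fatty acid synthesis 6 were higher and 9 lower under SCDi, with a median of -0.07: Acaca, acetyl-CoA carboxylase, had 0.55 (0.1 to 1.03) and Fasn, fatty acid synthase, -0.9 (-1.72 to -0.13). Of 22 cholesterol synthesis genes 9 were higher and 13 lower, with a median of -0.03.

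Markers of other cell types in the gate also differed between the treatments. The macrophage list summed to 15250 CPM under vehicle and 18220 CPM under SCDi, with 10 of 16 genes higher. The microglia list summed to 550.3 and 366.8 CPM, with 5 of 7 genes lower. The monocyte list summed to 8976 and 8374 CPM, with 8 of 12 lower, and the neutrophil list to 380.6 and 60.78 CPM, mostly from the single vehicle cell described above. Their part in the differences between treatments was not tested.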

How the data were processed

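Immune cells of 2 treatments, vehicle and SCDi, were sorted from pooled brains of 3 mice each and measured with droplet 3' RNA libraries. The authors deposited raw UMI counts per gene and barcode, made with Cell Ranger 7.1.0 against the mm10 genome per the submitters' processing notes. All 32285 genes were used as deposited, with gene positions from the annotation of the same build. The authors' cell filters beyond this were not given in the sources used here.

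Counts were summed over the gated cells of a library and given as CPM. A log2 ratio had 0.5 counts added to each sum and an exact conditional binomial interval of 95%. In simulated counts this interval held 91.1% to 95.6% of the true ratios. Those counts were drawn as Poisson sums without differences between cells, which is the interval's own assumption. The simulation therefore does not show how the interval holds for sums that rest on few cells. With 1 library per group no edgeR or other test across libraries was possible. A gene was called at a 2-fold difference, in both libraries where cell types were compared. Shares have exact Clopper-Pearson intervals, and differences of shares Newcombe intervals. UMIs of 1 cell are not independent, so intervals cover counting error only. Doublets were scored by simulation with scanpy 1.11.5; its automatic limit marked 0.0287% and 0.0775% of barcodes, so a set share of the highest scores was marked instead, 387 and 333 barcodes, which stayed in. Other gates were set on their marker genes.

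Named genes are the 15 highest and 15 lowest against the type 2 gate by the log2 ratio nearer to 0 of the 2 libraries, and the 10 highest and 10 lowest by treatment, at 50 CPM or more in either group, without gate, ribosomal, mitochondrial and predicted genes. Members of 35 gene lists were also named. Values of some genes that these rules name are not reported here. The gated cells and the lists were chosen with earlier results of these data known. Alternatives changed the gate, the filters, the comparison gates, the added count, the scaling, the CPM limits and the thinning depth. The tumour-sorted libraries served for the check of the sort only.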

Additional observations from a re-analysis of the deposited data

How the results depend on the processing

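Of 17 alternatives, most left the main values within their counting intervals or counts within 1.5 times: 105 of these values stayed and 34 moved. Single genes and lists stayed in 640 cases, moved in 276 and turned in 23. No paired analysis was possible because each treatment is 1 pooled library. Unless the alternative's own construction shows it, the cause was not tested.

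The share of gated cells moved to 0.618% under vehicle and 0.837% under SCDi with 3 supporting genes, to 0.647% and 0.527% without C1q-rich cells, and to 0.934% and 0.806% with Flt3 or Zbtb46 required, by construction with fewer cells. Of the type 1 and type 2 gates together it was 34.5% and 38.1%, a difference of 3.606 points. With 3 supporting genes 145 genes were 2-fold higher and 134 lower than in the type 2 gate. Without C1q-rich cells 130 were lower, and against the narrower type 2 gate 165 were higher. Against plasmacytoid cells 303 were higher without marked doublets (main value 201), 479 lower without C1q-rich cells (main value 315), and 417 higher and 481 lower with the C1q-poor plasmacytoid gate. Under SCDi 88 genes were higher without C1q-rich cells and 38 by the mean of each cell's CPM (main value 25). Of the lists, 13 had a median over the type 2 gate above that of all genes in both libraries, 6 without C1q-rich cells and 7 with Flt3 or Zbtb46.

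Without C1q-rich cells the vehicle log2 ratio over the type 2 gate turned to -1.31 for Ccl8, -1.88 for Pf4, -1.18 for Ccl12, -3.57 for Itga9, -1.51 for Cd63, -4.95 for Lpl, -0.14 for Slamf9 and -1.27 for Cd81. With Flt3 or Zbtb46 Lpl turned to -0.48 under SCDi. The narrower type 2 gate turned Chil3 (4.53) and Thbs1 (1.59) under SCDi and Mmp8 (0.07) under vehicle. Between treatments Ccl17 turned to 0.23 without C1q-rich cells, and Pparg to -0.04 and Clec4b1 to -0.32 with Flt3 or Zbtb46. Values between treatments without C1q-rich cells rest on 45 and 34 cells, under the limit of 50 set for such ratios. Medians of lists between treatments turned without C1q-rich cells for chemokine receptors (0.19) and lipid droplets (-0.11). With Flt3 or Zbtb46 they turned for chemokine receptors (0.2), G2 and M phase (-0.56), lipid droplets (-0.16), oxidative stress (-0.14) and monocyte genes (0.19). With no CPM limit the B cell list turned to -0.29.

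Thinned shares depend on depth by construction. Mki67 or Top2a was found in 0.0% of vehicle cells without C1q-rich cells and in 1.1% at 1000 UMIs. Flt3 or Zbtb46 was found in 46.7% and 41.2% without C1q-rich cells, in 15.4% and 11% at 1000 UMIs, and in 51.1% and 38.2% at 5000 UMIs. C1q genes were found in 27.7% and 38.5% of cells with Flt3 or Zbtb46, in 45.1% of SCDi cells at 1000 UMIs, and in 53.3% and 68.5% at 5000 UMIs.

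With 1 library per treatment and 91 cells in each, differences between animals could not be measured, and sums of low genes can rest on 1 cell. Cells that met the gate through 1 UMI cannot be told apart from cells with free RNA of the key gene.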
